A study of Mus musculus with 14 samples.

Results

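Blood clotting is started and limited by a small set of proteins, and the messages of 9 of them were followed here in single cells of mice carrying a melanoma. The genes were F3, F7, F10, F5, F13a1, Tfpi, Plau, Plaur and Thbs1, chosen by name with earlier results of these data known. They are 9 of the 21138 genes in the count table, and all 9 passed the filter on low counts. Messages were measured by Smart-seq2, a full-length single-cell RNA-seq protocol, in 648 cells of 14 samples. The 9 tumor samples came from C57BL/6J females, 6 to 8 weeks old, injected with B16F10 melanoma cells that carried a fluorescent label; B16F10 is a cultured mouse line. Their blood and lung cells had been sorted by tumor and host markers into the classes DP (450 cells), CTC (43 cells) and WBC (46 cells). The labels do not spell out these names; the series concerns candidate hybrids of tumor cells and leukocytes in the circulation. The 5 controls had 1 sample each, namely CDP (18 cells), Duplike (24) and PltLike (24), names that the labels do not explain, B16F10 cells (22, labelled CTC) and WBC (21); CDP, Duplike, PltLike and WBC carry the label naive and the same strain, sex and age. Nothing in the labels says whether the 9 tumor samples, called replicates 1 to 9 here, came from separate animals. The main tests used counts summed within samples and fitted a level for each sample. Their p-values measure the spread left between such sums, and may not stand for a spread between animals. No cell number was shared between samples (0).

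DP cells were divided by a score of their melanocyte genes, none of which is among the 9. The score was the mean log2(CPM + 1), where CPM is the usual scaling of a count to its library's total, of 15 melanocyte genes such as Pmel and Tyr, and the cut was the midpoint of the medians of the B16F10 cells (9.03) and the naive WBC (1.32). It left 181 tumor-low DP and 269 tumor-high DP cells; all 43 CTC were tumor-high, and 45 of 46 WBC were tumor-low. Within 1 unit of the cut of 5.17 stood 25 cells, 19 of them DP. Most naive-labelled controls went against that label, since all 18 CDP, all 24 Duplike and 23 of 24 PltLike cells were tumor-high. The 10 pan-leukocyte genes summed to between 3778 and 11464 CPM in tumor-low DP and between 823 and 2284 CPM in tumor-high DP. Their sums were between 672 and 1349 CPM in CTC and between 7264 and 13357 CPM in WBC. In tumor-high DP and CTC most of this came from 1 gene, Arhgdib, at medians of 878 and 769 CPM. The other genes of the list had medians of 24.7 CPM or less in tumor-high DP and 1.215 CPM or less in CTC. Counts were summed per replicate, tissue and group where at least 2 cells were present, which gave 13 sums of tumor-low DP, 11 of tumor-high DP, 7 of CTC and 9 of WBC. Median depth per cell, in M counts (M, mega), was 7.39 in tumor-low DP, 19.1 in tumor-high DP, 22.1 in CTC and 5.09 in WBC. In 201 of the 360 pairs of a gene and a sum, 1 cell gave over 50% of the counts. Sums mix the number of expressing cells with the level in each, so fewer expressing cells and less RNA per cell cannot be told apart in them; shares of single cells are given beside them.

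Clotting in tissue starts when tissue factor, the membrane protein made from F3, binds factor VII, the protease made from F7. The pair activates factor X (F10), and activated factor X with its cofactor factor V (F5) turns prothrombin into thrombin. The A subunit of factor XIII (F13a1) belongs to a transglutaminase that cross-links fibrin, while tissue factor pathway inhibitor (Tfpi) blocks the complex of tissue factor, factor VII and factor X. Fibrin is removed by plasmin, which urokinase (Plau) releases from plasminogen, often while bound to its receptor (Plaur). Thrombospondin 1 (Thbs1) is an adhesive glycoprotein that platelets store and that macrophages also make. The liver is the main source of the circulating factors, and tissue factor on tumor cells is known to promote clotting around them.

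F7 and F10 lie side by side on mouse chromosome 8 (GRCm38), F7 at chr8:13026034-13035809 and F10 at chr8:13037308-13056676, both on the plus strand and 1498 bases apart. Their promoters are shown because the pair moved together across the sums, and those of F13a1 and F3 because these genes had the opposite distribution over tumor and leukocyte cells. Each is the 250 bases before the start site in RefSeq (GRCm38.p6), 5′ to 3′ on the gene's own strand. F7 is at chr8:13025784-13026033 (plus strand), F10 at chr8:13037058-13037307 (plus), F13a1 at chr13:37050245-37050494 (minus) and F3 at chr3:121723287-121723536 (plus).
F7: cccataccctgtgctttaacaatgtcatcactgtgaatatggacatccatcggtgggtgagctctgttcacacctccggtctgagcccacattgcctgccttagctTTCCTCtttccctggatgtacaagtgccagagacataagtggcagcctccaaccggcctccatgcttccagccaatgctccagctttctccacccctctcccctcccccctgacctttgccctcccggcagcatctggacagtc
F10: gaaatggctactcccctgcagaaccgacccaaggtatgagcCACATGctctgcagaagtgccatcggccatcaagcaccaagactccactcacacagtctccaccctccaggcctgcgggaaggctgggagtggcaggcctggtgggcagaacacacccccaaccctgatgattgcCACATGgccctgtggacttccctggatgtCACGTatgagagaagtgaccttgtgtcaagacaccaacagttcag
F13a1: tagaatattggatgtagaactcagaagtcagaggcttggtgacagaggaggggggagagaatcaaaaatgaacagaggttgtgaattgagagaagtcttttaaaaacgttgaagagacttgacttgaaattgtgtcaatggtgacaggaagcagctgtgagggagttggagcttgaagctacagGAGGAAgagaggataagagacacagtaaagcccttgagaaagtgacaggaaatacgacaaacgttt
F3: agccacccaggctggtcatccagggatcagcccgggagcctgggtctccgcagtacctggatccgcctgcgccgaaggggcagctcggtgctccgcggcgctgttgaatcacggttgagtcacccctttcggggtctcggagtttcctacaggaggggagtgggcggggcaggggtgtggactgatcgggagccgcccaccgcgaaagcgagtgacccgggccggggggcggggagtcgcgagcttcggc
Capitals mark 3 short motifs on either strand: GAGGAA (reverse TTCCTC), a core that the myeloid factor PU.1 can bind; CATGTG (reverse CACATG), an E-box that the melanocyte factor MITF can bind; and ACGTG (reverse CACGT), a core of hypoxia response elements. GAGGAA occurred 1 time in the F7 window and 1 time in the F13a1 window, the F10 window held CATGTG 2 times and ACGTG 1 time, and the F3 window held none of these letters; no marked motif overlapped another. Among all 32851 promoters of the same length, 23.3% held GAGGAA, 12.3% CATGTG and 16.6% ACGTG, so each match is common. A promoter was found for 7 of the 9 genes; the windows of F5 and Tfpi held none of the 3, and that of Plaur held GAGGAA 2 times. Thbs1 and Plau are named only.

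Tissue factor and its inhibitor were found mainly in the tumor-type cells. F3 reached 5 CPM or more in 7.18% of 181 tumor-low DP cells (95% exact interval 3.88 to 11.97), against 68.8% of 269 tumor-high DP cells (62.9 to 74.3), and in 72.1% of 43 CTC (56.3 to 84.7), against 8.89% of 45 WBC (2.48 to 21.2). Tfpi reached it in 14.9% of tumor-low DP cells, 92.6% of tumor-high DP cells, 88.4% of CTC and 8.89% of WBC. The shares moved little with each cell thinned to 500000 counts (6, 1, 0 and 2 shallower cells left out of tumor-low DP, tumor-high DP, CTC and WBC): F3 was then in 6.86%, 68.3%, 72.1% and 6.98% of them. A lower level moved the shares of the leukocyte-type cells more: at 1 CPM or more, F3 was in 17.7% of tumor-low DP cells, 71.7% of tumor-high DP cells, 74.4% of CTC and 20% of WBC, and Tfpi in 28.2%, 94.4%, 90.7% and 28.9% of the same groups. The control cells of tumor type showed the same pair of messages: Tfpi was at 5 CPM or more in all 18 CDP, 24 Duplike, 24 PltLike and 22 B16F10 cells, and F3 in 77.8%, 62.5%, 54.2% and 72.7% of them, while no naive WBC had F3 at that level (0 of 21, which allows a share of up to 14.3%).

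F3 was near 0 in most sums of tumor-low DP: the median was 0.460 CPM in lung (0.00931 to 69.3) and 0.598 CPM in blood (0.115 to 213), but of 3 high sums those at 69.3 and 178 CPM lay in the range of tumor-high DP and that at 213 CPM above it. In tumor-high DP sums, F3 was at 45.0, 59.9, 94.3 and 97.0 CPM in lung, and in blood its lowest, median and highest values were 34.0, 53.2 and 183 CPM. CTC held 20.7 and 93.1 CPM in lung and 16.1, 54.0, 70.2, 85.1 and 164 CPM in blood. The values of tumor-high DP and CTC overlapped, with a log2 difference of 0.15 ± 1.37 (SE; edgeR quasi-likelihood test, adjusted p = 1.00). WBC had 0, 43.4 and 79.8 CPM in lung and between 0.115 and 0.696 CPM in blood. So 2 lung sums of WBC, of replicates 2 and 5, reached the range of tumor-high DP too. In each of these 2 sums 1 cell gave nearly all F3 counts, 100% and 99.4%. F3 fell in tumor-low DP relative to tumor-high DP by 5.12 on the log2 scale (SE 1.63, adjusted p = 0.0219, edgeR; lower in 9 of 10 pairs from the same replicate and tissue), but this call was lost in several settings: without the replicate term the difference was -0.58 (adjusted p = 0.809), and it was lost without replicate 1 (adjusted p = 0.0882), 2 (0.0546), 3 (0.0564) or 7 (0.114). It passed by DESeq2 (adjusted p = 5.27e-07) and limma (adjusted p = 5.76e-05). Single cells made the high sums of tumor-low DP: 1 cell gave 99.9% of the F3 counts of the lung sum of replicate 4 and 1 cell 99.8% of the blood sum of replicate 9. The lung cell had 837 CPM of F3, with fibroblast genes summing to 46995 CPM and macrophage genes to 22743 CPM. The blood cell had 779 CPM of F3, with fibroblast genes at 17481 CPM and macrophage genes at 287.5 CPM. In replicate 6, 4 of the tumor-low DP cells with the highest F3 (238, 334, 384 and 669 CPM) had melanocyte scores of 5.16, 4.66, 4.67 and 4.99, under the cut of 5.17, and stood in the tumor branch of a clustering of all cells. Of all 17 tumor-low cells at 5 CPM of F3 or more, WBC included, 12 had macrophage genes over 1000 CPM and 4 stood in the tumor branch. Fibroblast genes were over 1000 CPM in 2 of the 17. Neither fibroblast nor endothelial genes at a high level nor a place in the tumor branch were found in 10. In the same order, the counts were 189, 2, 16 and 188 of the 209 tumor-low cells below that level of F3.

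The inhibitor gene Tfpi ran from 0.251 to 80.8 CPM in the sums of tumor-low DP (median 6.41), all of them below every tumor-high DP sum. Tumor-high DP had 121, 139, 155 and 227 CPM in lung and between 110 and 167 CPM (median 136) in blood, and CTC had 115 and 164 CPM in lung and 54.2, 69.7, 117, 122 and 221 CPM in blood. WBC held 0.0326, 0.118 and 1.01 CPM in lung and between 0.116 and 161 CPM in blood. The difference of tumor-low from tumor-high DP, -2.78 ± 1.28 on the log2 scale, missed the threshold (adjusted p = 0.131, edgeR), and passed it by DESeq2 (adjusted p = 0.00235) and limma (adjusted p = 0.000378). In tumor-low DP, 27 cells reached 5 CPM of Tfpi. The highest were 2 lung cells with 1471 and 654 CPM and fibroblast genes at 4015 and 48065 CPM. Of all 31 tumor-low cells at that level, WBC included, 23 had macrophage genes over 1000 CPM and 5 stood in the tumor branch of the clustering. Fibroblast genes were over 1000 CPM in 2 of the 31. In the same order, the counts were 178, 1 and 16 of the 195 tumor-low cells below that level of Tfpi.

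The proteases F7 and F10 and the cofactor F5 were found in the leukocyte-type cells and at near 0 in most tumor-type cells. F10 reached 5 CPM in 45.3% of tumor-low DP cells, 0.743% of tumor-high DP cells, 0 of 43 CTC and 42.2% of WBC. For F7 the shares were 42.5% of tumor-low DP cells, 1.12% of tumor-high DP cells, 0 of 43 CTC and 33.3% of WBC, and for F5 24.3%, 1.86%, 0 of 43 and 35.6% in the same groups. A count of 0 in 43 cells allows a share of up to 6.98%.

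F10 had 2.70, 3.49, 19.5, 77.0, 115, 273 and 323 CPM in the lung sums of tumor-low DP and 97.9, 160, 161, 236, 286 and 412 CPM in the blood sums. Tumor-high DP sums held between 0.00336 and 3.02 CPM, CTC between 0 and 0.145 CPM, and WBC between 38.6 and 809 CPM (median 235). Tumor-low DP and tumor-high DP met only at the low end of the lung sums, and CTC lay below every WBC sum. F10 rose in tumor-low DP over tumor-high DP by 10.50 ± 1.16 on the log2 scale (adjusted p = 3.51e-08, edgeR) and was lower in CTC than in WBC, by a fitted -12.995 on that scale (SE 1.51, adjusted p = 6.09e-08, edgeR).

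F7 ran from 0.919 to 410 CPM in the lung sums of tumor-low DP (median 236) and from 39.0 to 267 CPM in the blood sums (median 155). In tumor-high DP it was at 0.0488, 0.635, 1.27 and 2.40 CPM in lung and at 0.0534 CPM or less in blood, and in CTC at 0.299 CPM or less. WBC held 5.70, 23.6 and 333 CPM in lung and 27.3 to 631 CPM in blood. Tumor-low DP and tumor-high DP overlapped at the low end of the lung sums, with tumor-low DP higher in all 10 pairs, and CTC lay below every WBC sum. F7 rose by 10.27 ± 1.24 in tumor-low DP over tumor-high DP (log2, adjusted p = 1.68e-07, edgeR) and fell by 12.87 in CTC relative to WBC (SE 1.64, adjusted p = 3.57e-07).

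F5 was uneven between tissues. Tumor-low DP had 0.00585, 0.0317, 0.121, 0.172, 1.44, 56.7 and 101 CPM in lung, against 0.234, 41.7, 109, 195, 373 and 606 CPM in blood. Tumor-high DP had at most 7.03 CPM, CTC at most 0.170 CPM, and WBC between 0 and 1132 CPM (median 153). Tumor-low DP and tumor-high DP overlapped, through the lung sums and the blood sum of replicate 3, and CTC overlapped WBC through 1 lung sum of WBC at 0. F5 rose by 8.77 ± 1.67 in tumor-low over tumor-high DP (log2, adjusted p = 0.000216, edgeR) and fell by 14.64 in CTC relative to WBC (SE 2.34, adjusted p = 1.47e-05); with lung sums alone neither difference passed (adjusted p = 0.222 and 0.196).

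The fibrin cross-linker F13a1 reached 5 CPM in 32.04% of tumor-low DP cells, 5.20% of tumor-high DP cells, 0 of 43 CTC and 22.2% of WBC, and up to 5802 CPM in a single tumor-low DP cell. Tumor-low DP sums had 19.2, 33.9, 268, 295, 309, 433 and 612 CPM in lung and 40.5, 108, 145, 242, 251 and 853 CPM in blood. Tumor-high DP had 2.35, 2.98, 15.8 and 49.4 CPM in lung and between 0.00336 and 15.4 CPM in blood, CTC between 0 and 0.229 CPM, and WBC between 0 and 637 CPM (median 2.84). The ranges of tumor-low and tumor-high DP overlapped, with tumor-low DP higher in all 10 pairs of the same replicate and tissue, while those of CTC and WBC overlapped at the low end. F13a1 rose by 6.95 ± 1.44 in tumor-low over tumor-high DP (log2, adjusted p = 0.000542, edgeR) and fell by 12.09 in CTC relative to WBC (SE 2.09, adjusted p = 4.24e-05); with lung sums alone neither passed (adjusted p = 0.213 and 0.180).

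Thbs1, the adhesive glycoprotein, had the highest median CPM of the 9 genes in tumor-low DP and in WBC. Its sums ran from 222 to 2609 CPM in lung (median 831) and from 93.4 to 4265 CPM in blood (median 1823) in tumor-low DP. In tumor-high DP they were 0.662, 10.8, 33.3 and 400 CPM in lung and 0.227 to 32.2 CPM in blood, in CTC 0.0725 to 28.1 CPM, and in WBC 176 to 6140 CPM (median 2369). The ranges of tumor-low and tumor-high DP overlapped only through the lung sum of tumor-high DP at 400 CPM, of which 1 cell gave 98.2% of the counts. Thbs1 rose by 7.33 ± 1.08 in tumor-low over tumor-high DP (log2, adjusted p = 5.52e-06, edgeR) and fell by 10.08 in CTC relative to WBC (SE 1.39, adjusted p = 1.48e-06). Of the 9 platelet genes, whose cells also carry thrombospondin 1 and factor XIII, Pf4 was present in tumor-low DP (median 672 CPM) and WBC (1212 CPM), whereas the other 8 had medians of 0.0394 CPM or less in both; their part in the result was not tested.

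The urokinase receptor Plaur was widely detected. It was at 5 CPM or more in 79.6% of tumor-low DP cells, 28.3% of tumor-high DP cells, 16.3% of CTC and 88.9% of WBC. Sums of tumor-low DP had between 286 and 946 CPM in lung and between 143 and 512 CPM in blood, those of tumor-high DP between 0.827 and 40.3 CPM, those of CTC between 0.0164 and 65.9 CPM, and those of WBC between 237 and 919 CPM. Tumor-low DP lay above tumor-high DP, and CTC below WBC, without overlap. Plaur rose by 5.67 ± 0.70 in tumor-low over tumor-high DP (log2, adjusted p = 2.94e-07, edgeR) and fell by 6.81 in CTC relative to WBC (SE 0.92, adjusted p = 1.05e-06). The controls CDP, Duplike, PltLike and B16F10 had Plaur at 5 CPM or more in 94.4%, 70.8%, 62.5% and 81.8% of cells, at 55.3, 37.7, 32.1 and 31.4 CPM in summed counts; with 1 sample each there is no test.

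Urokinase itself, Plau, was low and patchy. It was found most often in tumor-low DP: 18.2% of 181 cells reached 5 CPM, against 2.23% of 269 tumor-high DP cells, 4.65% of 43 CTC and 0 of 45 WBC (which allows up to 6.67%). Tumor-low DP sums had 0.543, 2.83, 10.7, 15.2, 18.2, 18.9 and 29.2 CPM in lung and 0, 0.698, 1.29, 3.05, 22.8 and 45.6 CPM in blood, while tumor-high DP had at most 2.57 CPM, CTC 5.65 CPM and WBC 0.570 CPM. The groups overlapped at the low end. Of the 13 sums of tumor-low DP, 9 drew more than 50% of their Plau counts from 1 cell. The log2 differences of tumor-low DP were 5.46 ± 2.04 from tumor-high DP (adjusted p = 0.0537, edgeR) and 5.70 ± 1.87 from WBC (adjusted p = 0.116); both passed by DESeq2 (adjusted p = 1.51e-05 and 9.55e-05) and by limma (adjusted p = 0.000239 and 0.00151).

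**Figure D1:**
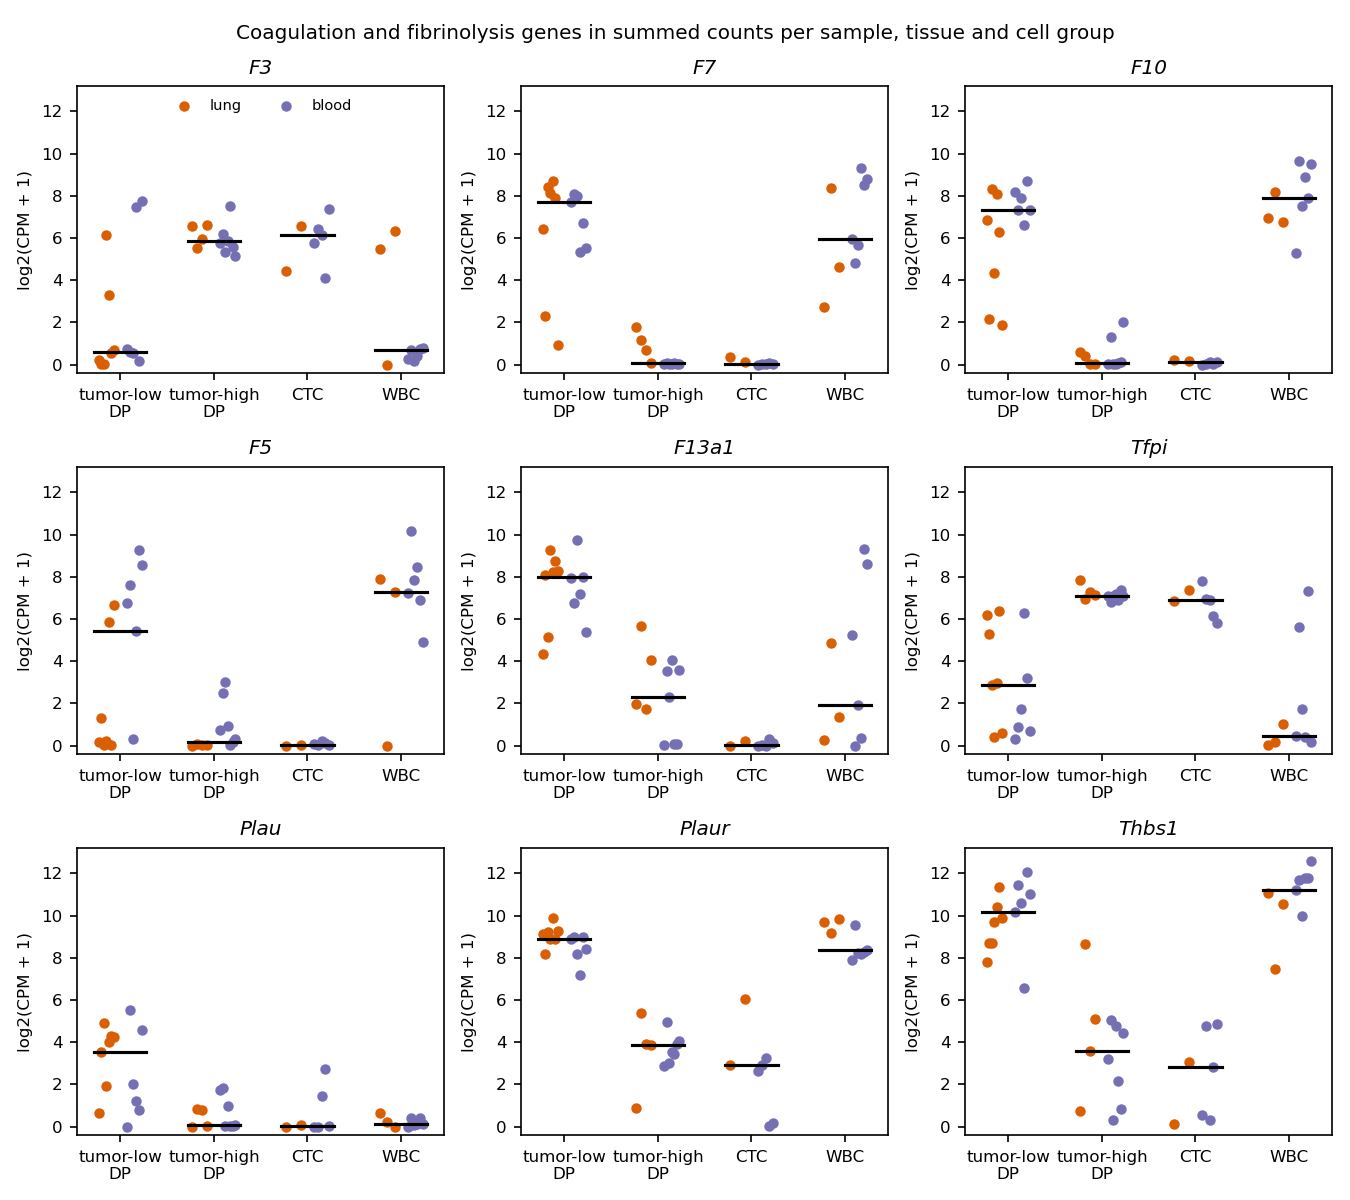
Levels of the 9 genes as log2(CPM + 1) in summed counts, 1 point per replicate and tissue (orange, lung; violet, blood), with the group median as a bar; 13, 11, 7 and 9 sums in tumor-low DP, tumor-high DP, CTC and WBC. F3 and Tfpi are high in tumor-high DP and CTC, F7, F10, F5, Plaur and Thbs1 in tumor-low DP and WBC, and F13a1 in tumor-low DP, with a WBC median of 2.84 CPM.

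Within tumor-low DP the 9 genes had a different order from that in tumor cells when counts were divided by exon length. The median levels of tumor-low DP sums, in CPM per kilobase, were 186 for Thbs1, 184 for Plaur, 111 for F7, 58.4 for F10, 37.2 for F13a1, 5.62 for F5, 4.52 for Plau, 1.17 for Tfpi and 0.208 for F3. In CTC the order began with F3 at 27.8 and Tfpi at 21.5 CPM per kilobase, followed by Plaur at 2.46 and Thbs1 at 1.01, and the other 5 genes were at 0.0321 or less.

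**Figure D2:**
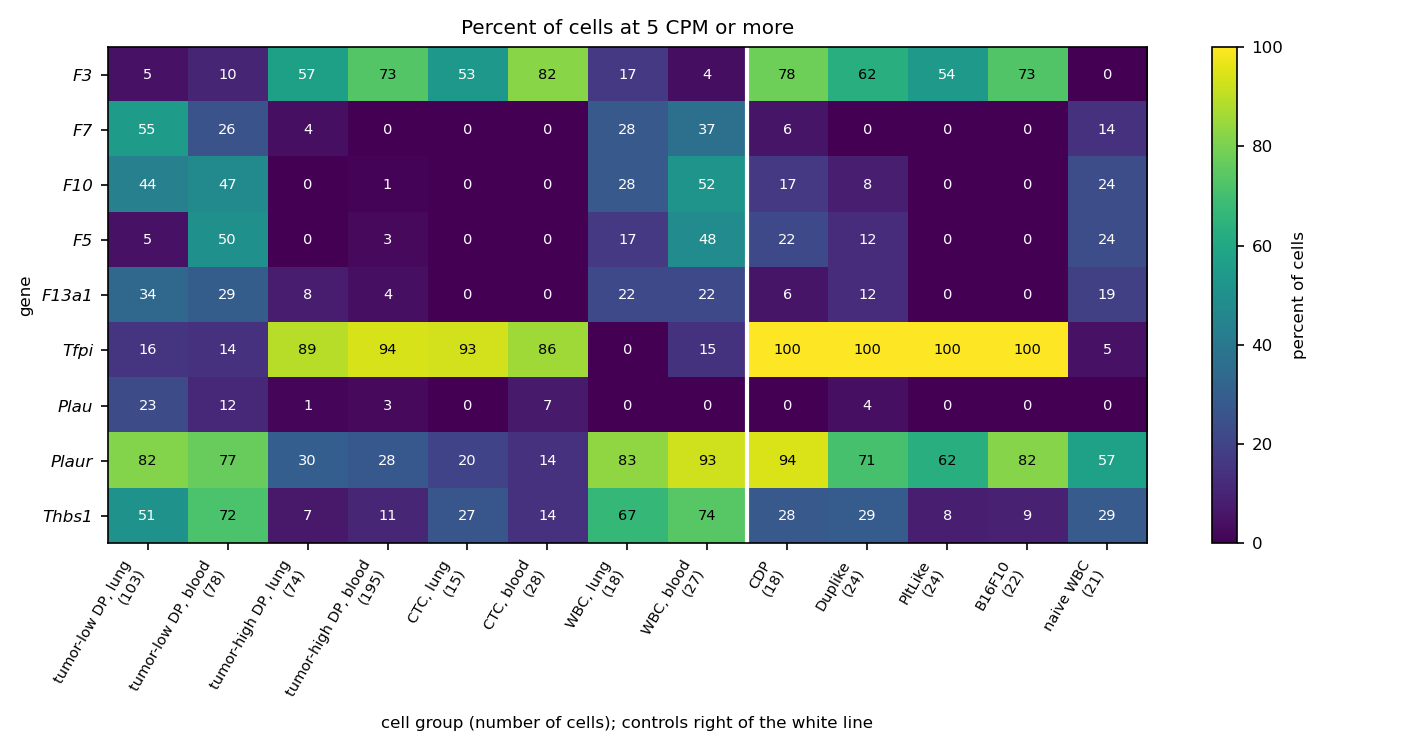
Percent of cells at 5 CPM or more for each gene (rows) in each cell group and tissue and in the 5 controls (columns, number of cells in brackets). Tfpi reaches 100% in CDP, Duplike, PltLike and B16F10 cells, and F5 is at 4.85% of tumor-low DP cells in lung against 50% in blood.

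The comparison of tumor-low DP with WBC asks whether leukocyte-type cells sorted as DP differ from leukocytes of the same mice. None of the 9 genes passed the threshold of 0.05 (edgeR), where 1.15% of 12624 genes tested did, 1.06% as higher and 0.0871% as lower. An unadjusted p under 0.05 was found for 2 of the 9, beside 1884 of all genes. By DESeq2 2 passed, beside 2525 of all genes, and by limma 2, beside 835. The 2 genes of the 9 were Plau and F13a1. F13a1 had a log2 difference of 3.21 ± 1.42 (adjusted p = 0.274, edgeR) and was higher in 6 of 7 pairs. The remaining 7 had log2 differences between -2.29 for F5 and -0.18 for F7. F10, F7, Plaur and Thbs1 had differences of -0.78 ± 1.02, -0.18 ± 1.05, -0.49 ± 0.63 and -0.38 ± 0.86 (log2 ± SE) and each SE exceeds the difference. The median over the 9 genes was -0.38, beside 0.43 over all genes tested.

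Tumor-high DP against CTC asks the same of the tumor-type cells. F13a1 was the 1 gene of the 9 that passed, where 1.63% of 12624 genes did, all 206 of them higher. It rose by 8.34 ± 1.86 on the log2 scale (adjusted p = 0.0120, edgeR) and was higher in 6 of 7 pairs. In 6 of the 11 tumor-high DP sums, most F13a1 counts came from 1 cell. No CTC reached 5 CPM of F13a1, but with 43 cells the interval of that share includes the share in tumor-high DP. An unadjusted p under 0.05 was found for 3 of the 9, beside 948 of all genes. By DESeq2 1 passed, beside 901 of all genes, and by limma 0, beside 31. The call was lost without replicate 3 (adjusted p = 0.108) or replicate 5 (adjusted p = 0.0864), with sums of at least 5 cells (0.227), by limma (0.452) and in blood (0.190) or lung (1.00) alone. The 9 genes had a median log2 difference of 1.71, beside 0.22 over all genes tested. F5 had 3.57 ± 1.58, F7 2.43 ± 1.12, Thbs1 2.37 ± 1.18 and F10 1.71 ± 1.02, all with an adjusted p of 0.488 or more, while F3, Tfpi, Plaur and Plau had differences of 0.65 or less.

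Few tumor-high DP cells held these messages. Of 269 tumor-high DP cells, 20 (7.43%) had F13a1, F10, F7 or F5 at 5 CPM or more, and none of 43 CTC did. In these 20 cells the 12 monocyte and macrophage genes summed to a median of 2964 CPM (4.26 to 44038), with 13 cells over 1000 CPM; in the other tumor-high DP cells the median was 9.51 CPM, with 3 cells over 1000 CPM. The 20 cells still carried the melanocyte genes, at a median sum of 24750 CPM against 33211 CPM in the others, and had a median depth of 17.4 M counts against 19.2 M. Their median levels were lower for F3 (14.96 against 46.4 CPM) and Tfpi (72.1 against 122 CPM) and higher for Thbs1 (11.01 against 0.114 CPM) and Plaur (14.01 against 0.118 CPM). These medians pool cells over replicates and were not compared within them. Replicate 6, with the highest F3 sum of tumor-high DP (183 CPM), gave none of the 20 cells and 67 of the others. The cell with the most F13a1, at 2434 CPM, had macrophage genes at 9903 CPM and 644673 counts in all. In the controls, 6 of 24 Duplike and 6 of 18 CDP cells had at least 1 of these 4 genes at 5 CPM, with median macrophage sums of 4732 and 5934 CPM, and none of 23 tumor-high PltLike and 22 B16F10 cells did. The part of macrophage RNA in the F13a1 result was not tested.

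**Figure D3:**
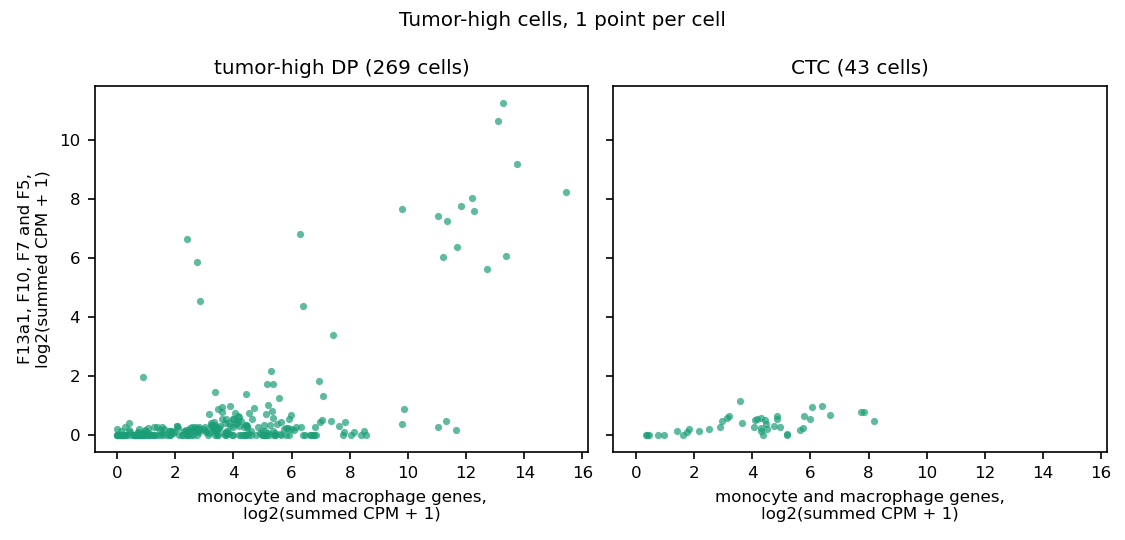
Each point is 1 tumor-high cell, tumor-high DP on the left (269 cells) and CTC on the right (43 cells); x, log2(summed CPM + 1) of 12 monocyte and macrophage genes; y, the same for F13a1, F10, F7 and F5 together. The 43 CTC stay near 0 on the y axis, and most DP cells high on it lie to the right, with macrophage sums over 1000 CPM.

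Between tumor-low DP and tumor-high DP, 7 of the 9 genes passed, 6 higher and 1 lower, where 20.1% of all genes passed, 9.7% as higher and 10.4% as lower; these groups were made from melanocyte genes, none of them among the 9. The median log2 difference of the 9 genes was 6.95, beside -0.36 over all genes tested. Between CTC and WBC, 6 passed, all lower, where 28% of all genes passed, 15.6% as higher and 12.4% as lower; the median of the 9 was -10.08, beside 0.47 over all genes. F3 and Tfpi were higher in CTC in 7 and 6 of 7 pairs, yet their log2 differences of 3.69 ± 1.83 and 1.78 ± 1.46 did not pass (adjusted p = 0.136 and 0.399, edgeR), while F3 passed by DESeq2 (adjusted p = 0.00262) and both by limma (adjusted p = 0.000165 and 0.000121). Macrophage markers moved with both comparisons: the monocyte and macrophage genes summed to a median of 35059 CPM in tumor-low DP, 280 in tumor-high DP, 28.2 in CTC and 31303 in WBC, and their part in the result was not tested. The 4 comparisons among these groups share sums, so they do not bear on each other independently. Because the 9 genes were chosen with earlier results of these data known, their counts beside the shares over all genes are no test of the set.

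**Figure D4:**
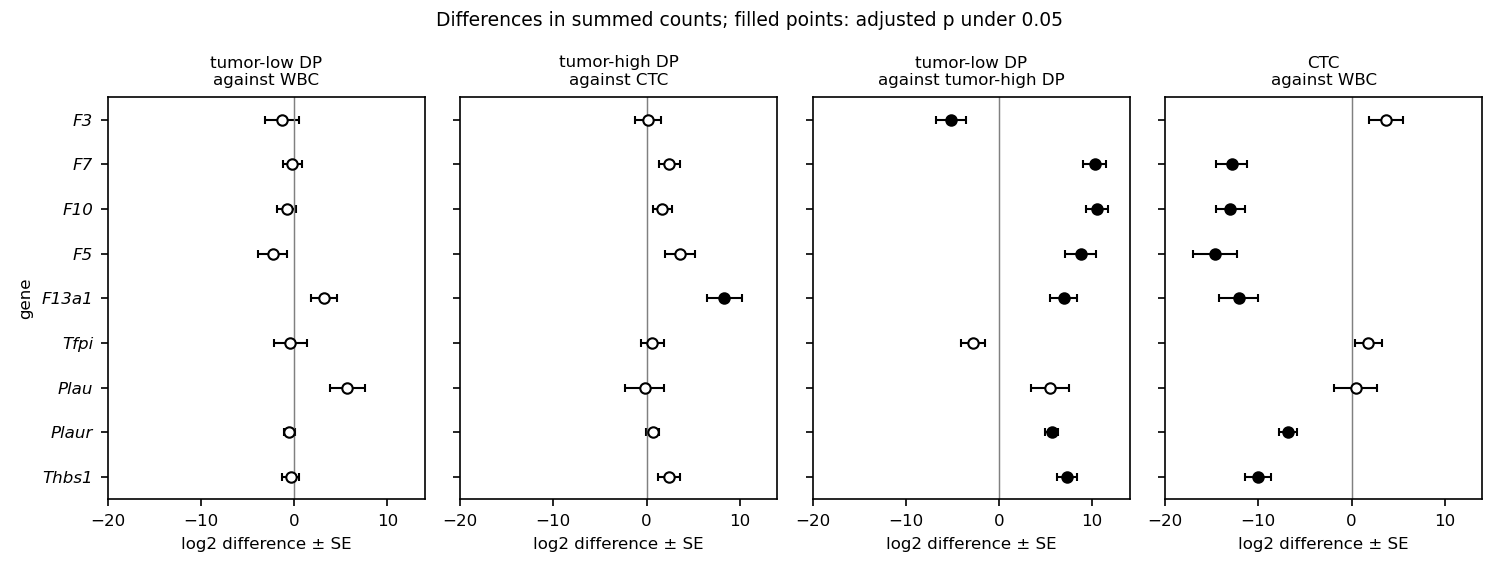
Log2 differences (x axis, with SE bars) of the 9 genes in 4 comparisons; filled points passed the adjusted p of 0.05. In tumor-low against tumor-high DP 6 filled points lie to the right and that of F3 to the left, with Plau (right) and Tfpi (left) open; in CTC against WBC 6 filled points lie to the left.

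Lung and blood cells of tumor-low DP are given here first pooled over replicates, with intervals that cover counting error only. F7 reached 5 CPM in 55.3% of 103 lung cells (45.2 to 65.1) against 25.6% of 78 blood cells (16.4 to 36.8), and F5 in 4.85% of lung cells (1.59 to 10.97) against 50% of blood cells (38.5 to 61.5). F10 reached it in 43.7% of lung and 47.4% of blood cells. In the fit over sums none of the 9 genes passed (edgeR), where 0.12% of 13327 genes did, 0.0825% as higher and 0.0375% as lower. An unadjusted p under 0.05 was found for 2 of the 9, beside 1237 of all genes. By DESeq2 2 passed, beside 1793 of all genes, and by limma 0, beside 94. The 2 genes of the 9 were F5, with a log2 difference of -9.18 ± 2.58 (adjusted p = 0.215, edgeR), and Tfpi, with 3.99 ± 1.34 (adjusted p = 0.316, edgeR). F7 had a log2 difference of 0.51 ± 1.00 over sums.

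Samples were uneven in these shares. F5 was at 5 CPM or more in at most 2 lung cells of a replicate, and in blood in 23 of 35, 10 of 16, 2 of 3 and 3 of 8 cells of replicates 7, 9, 1 and 2, but in 1 of 14 cells of replicate 6 and 0 of 2 of replicate 3. F7 was in 24 of 32, 10 of 15, 12 of 19 and 8 of 13 lung cells of replicates 3, 4, 5 and 7 and in 1 of 7, 1 of 14 and 1 of 3 of replicates 1, 2 and 8. In blood F7 was in 1 of 3, 3 of 8, 1 of 2, 3 of 14, 11 of 35 and 1 of 16 cells of replicates 1, 2, 3, 6, 7 and 9. Replicates 1, 2, 3 and 7 gave both tissues. Within them the share with F7 was higher in lung in replicates 3 and 7 and lower in lung in replicates 1 and 2, while the share with F5 was lower in lung in replicates 1, 2 and 7 and 0 in both tissues of replicate 3.

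Among tumor-high DP sums, no gene of the 9 passed for lung against blood (edgeR), where 0% of 13327 genes did. An unadjusted p under 0.05 was found for 2 of the 9, beside 438 of all genes. By DESeq2 2 passed, beside 512 of all genes, and by limma 0, beside 0. F7 had a log2 difference of 5.82 ± 1.35 (adjusted p = 0.293, edgeR) at levels of 2.40 CPM or less, and F5 one of -9.14 ± 2.69 (adjusted p = 0.943) at levels of 7.03 CPM or less. The difference between these effects, tumor-low minus tumor-high DP, passed for none of the 9 (edgeR), where 0% of all genes did. F7 had the 1 unadjusted p under 0.05, at -5.32 ± 1.37 (adjusted p = 1.00, edgeR), beside 514 of all 13327 genes. It passed by DESeq2 alone (1 gene of the 9, beside 645 of all genes) and not by limma (0, beside 0).

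Clusters of macrophage-type cells drew unequally on lung and blood. Cells were clustered on 2000 variable genes with these 9 and their pathway left out, which gave 10 clusters, described here without a test. Cluster 5 (48 cells, 46 of them tumor-low DP of lung) was alveolar macrophage-like, with Chil3, Ear2, Plet1 and Atp6v0d2 among its leading genes. It had F7 at 5 CPM or more in 87.5% of cells and F10 in 70.8%, at means of 496 and 258 CPM. F5 was in only 4.17%, F13a1 in 6.25% and Thbs1 in 16.7%. Of its 48 cells, 27 came from the lung of replicate 3. F10 was in 21 of 27, 1 of 7, 5 of 6 and 4 of 5 of its lung cells in replicates 3, 4, 5 and 7. F7 was in 23, 6, 6 and 4 of the same cells. Cluster 4 (49 cells, 30 of them tumor-low DP of blood, none of lung, with 13 WBC and 6 naive WBC) was serous-cavity macrophage-like, led by Prg4, Alox15 and Saa3 with 5 of 8 such markers in at least 50% of its cells. It had the highest means of F5 (754 CPM, 79.6% of cells), F10 (439 CPM, 75.5%) and Thbs1 (4592 CPM, 95.9%), but a median of 0.775 CPM of F7 (38.8% of cells). F10 was frequent in both clusters, while the highest share of F7 stood in cluster 5 and that of F5 in cluster 4.

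Clusters 3 and 8 were monocyte and macrophage-like, led by C1qb and Lyz2 and by Spp1 and Ccl4, and had the highest means of F13a1. Cluster 8 (33 cells, 28 of them tumor-low DP of lung) had it in 72.7% of cells at a mean of 479 CPM, and cluster 3 (56 cells) in 51.8% at 605 CPM. Plau was found most often there too, in 24.2% of cells of cluster 8 and 26.8% of cluster 3, and in 0 of 49 cells of cluster 4. Cluster 3 held tumor-low DP of both tissues. Within it, pooled over replicates, F5 was in 1 of 14 lung cells against 14 of 35 blood cells. F7 was in 8 of 14 against 9 of 35, and F13a1 in 9 of 14 against 18 of 35. These lung cells came from 3 samples and the blood cells from 6, so tissue and sample are mixed in these counts. The B-cell-like cluster 10 (15 cells, all 5 B-cell genes present) had no cell at 5 CPM of F7, F10, F5, F13a1, Tfpi or Plau, yet Plaur in 86.7% of cells at a mean of 370 CPM. Cluster 7 (45 cells), in which fibroblast and neutrophil genes led together and the median depth was 1.52 M counts, was left unnamed.

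**Figure D5:**
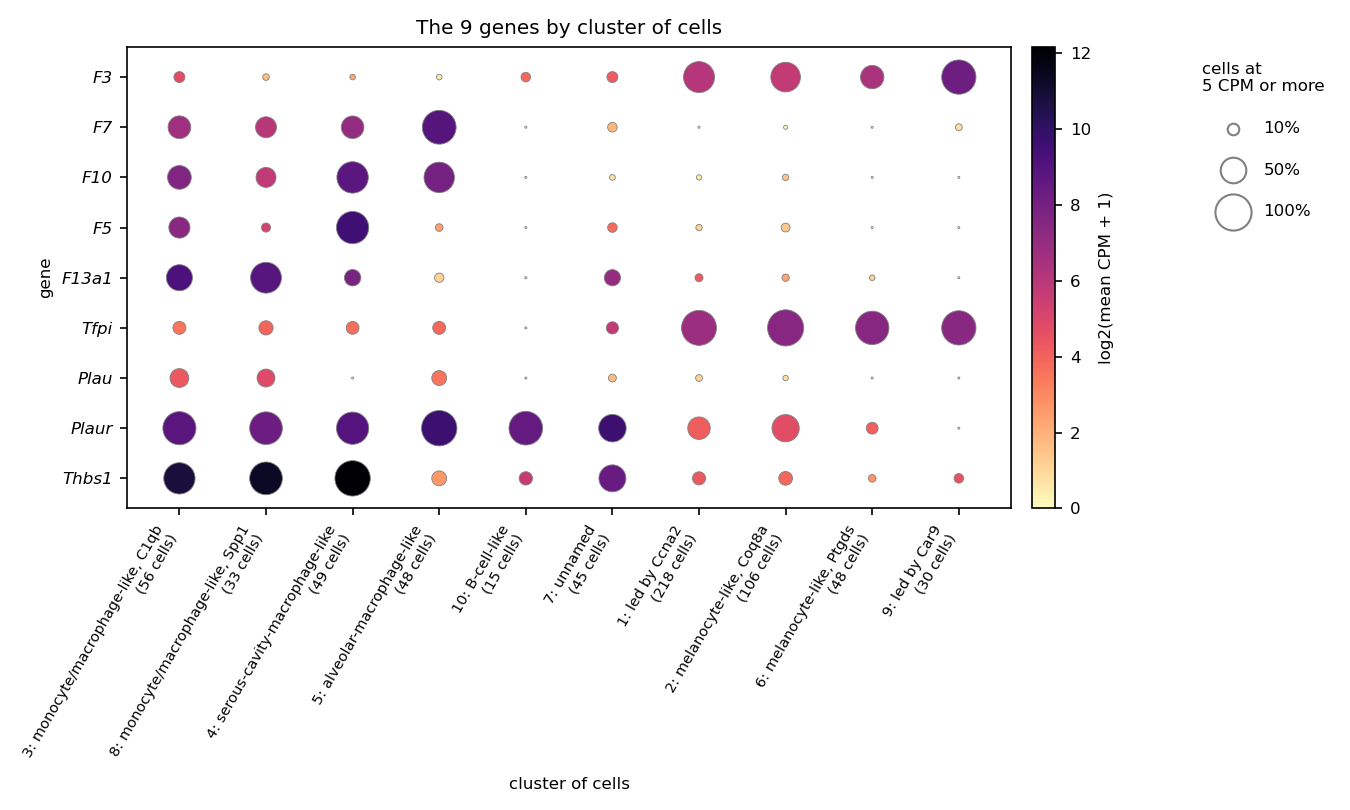
Mean level (colour, log2(mean CPM + 1)) and percent of cells at 5 CPM or more (area of the circle) of the 9 genes in 10 clusters of cells, clusters of leukocyte-type cells on the left and of tumor-type cells on the right. F7 peaks in cluster 5 (496 CPM), F5 in cluster 4 (754 CPM), F13a1 in clusters 3 and 8 (605 and 479 CPM) and F3 in cluster 9 (291 CPM).

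F7 and F10 were often found in the same cell. Of 226 tumor-low cells (DP and WBC of the 9 tumor samples), 101 had F10 and 92 had F7 at 5 CPM or more, and 69 had both, 68.3% of the F10 cells and 75.0% of the F7 cells. In blood, 27 of 30 cells with F7 had F10, and in lung 42 of 62. All 60 cells with F5 had Thbs1, beside 141 of all 226 cells with Thbs1, and 44 of the 60 had F10. In blood, where 52 of the cells with F5 lay, 76 of 105 cells had Thbs1. F13a1 overlapped less with F10, in 26 cells, 38.2% of the 68 with F13a1. Of the 33 cells with Plau, 25 also had its receptor Plaur, 75.8% of them, beside 184 of all 226 cells with Plaur.

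Among the tumor-type clusters F3 had its highest mean in cluster 9 (30 cells), led by Car9, Bnip3, Ero1a and Ndrg1, genes known to be induced by low oxygen, with 13 of 15 melanocyte genes in at least 50% of its cells. F3 was at 5 CPM or more in 90.0% of its cells at a mean of 291 CPM, against means of 51.7 to 84.8 CPM in the other 3 tumor-type clusters. Most of these cells were of 1 sample: in replicate 6, 18 tumor-high cells of cluster 9 had a median of 257 CPM (27.0 to 1254) against 71.0 CPM in its 54 other tumor-high cells, and replicates 7 and 8 gave 3 cells each, with medians of 48.9 and 140 CPM against 36.9 and 0.538 CPM. Replicates 5, 3 and 9 gave 1 cell each: 341 CPM against a median of 27.0 CPM in the other tumor-high blood cells of replicate 5, but 0 against 0.134 CPM in the lung of replicate 3 and 0.133 against 12.7 CPM in the blood of replicate 9. Plaur was at 5 CPM in 0 of the 30 cells, while it was in 38.5%, 56.6% and 10.4% of clusters 1, 2 and 6. Clusters 1 and 2 held 47 and 41 CDP, Duplike, PltLike or B16F10 control cells, and clusters 6 and 9 held 0. Within replicate 6, Plaur was in 0 of the 18 tumor-high cells of cluster 9 and in 15 of the 54 others. Tfpi did not set cluster 9 apart, with a median of 148 CPM against 113 to 168 CPM in the other 3.

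In summed counts of the controls, F3 was at 50.8, 34.0, 25.9 and 38.8 CPM and Tfpi at 201, 125, 106 and 244 CPM in CDP, Duplike, PltLike and B16F10 cells. The naive WBC had 0.226 CPM of each, from 6 counts (exact Poisson interval 0.0828 to 0.491). Leukocyte messages were at 244 CPM of F13a1, 75.8 of F10, 38.6 of F7, 176 of F5 and 903 of Thbs1 in naive WBC, at a total depth of 26.6 M counts, and Plau had no count there (limit of 3 counts, 0.113 CPM). PltLike cells had no count of F7 or F10 (limit 0.00636 CPM) and neither B16F10 nor Duplike cells had a count of F7. CDP and Duplike held more: F13a1 at 3.003 and 12.5 CPM, F10 at 7.43 and 1.17 CPM, F5 at 4.21 and 1.87 CPM and Thbs1 at 56.9 and 28.6 CPM.

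Of 48 other genes of clotting, anticoagulation, fibrinolysis and their receptors, 22 could be tested. These lists too were chosen with earlier results of these data known, so counts beside the shares over all genes are no test of them. In tumor-low over tumor-high DP 10 rose and 1 fell, where 9.7% of all genes were called higher and 10.4% lower (edgeR). By DESeq2 16 of the 22 passed, beside 4618 of all 12624 genes, and by limma 12, beside 4869. Among the rises were 5 of 8 fibrinolysis genes, 2 of 5 anticoagulants, both thrombospondin receptors and 1 of 7 other clotting genes. The rises included Tgm2, a tissue transglutaminase related to factor XIII (8.65 ± 1.26 on the log2 scale, adjusted p = 4.44e-06, edgeR), Serpinb2, an inhibitor of urokinase (10.69 ± 1.57, 5.04e-06), the thrombospondin receptors Cd36 (8.20 ± 0.99, 1.66e-07) and Cd47 (2.49 ± 0.40, 2.40e-05), the clearance receptor Lrp1 (5.39 ± 0.72, 1.06e-06) and S100a10, which with annexin A2 binds plasminogen (3.22 ± 0.39, 1.64e-07). Adamts13, the protease that cuts von Willebrand factor, was the 1 that fell, by 5.22 (named after its values were seen), at medians of 0.0302 CPM in tumor-low and 1.23 CPM in tumor-high DP. The median over the 22 was 1.497, beside -0.36 over all genes.

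In CTC against WBC 12 of the 22 fell and 2 rose, beside 12.4% of all genes called lower and 15.6% higher. By DESeq2 20 of the 22 passed, beside 5679 of all 12624 genes, and by limma 11, beside 6622. The falls included 5 of 8 fibrinolysis genes and both thrombospondin receptors. Some falls did not show in the medians (named after their values were seen). Serpine2 had a median of 0 CPM in both groups, and Gas6 had 0.0106 CPM in CTC and 0.163 CPM in WBC. Lman1 had a higher median in CTC (81.6 CPM) than in WBC (47.0 CPM). Cd36 (-11.53 ± 1.40), Tgm2 (-12.83 ± 1.62), Serpinb2 (-13.55 ± 2.03), Cd47, Lrp1 and S100a10 had the smallest p-values, with adjusted p of 7.42e-06 or less (edgeR). Serpinb2 had medians of 0.0982 CPM in CTC and 1687 CPM in WBC. In tumor-high DP over CTC 1 of the 22 rose, where 1.63% of all genes did. It was Cd36, by 4.23 ± 1.10 (adjusted p = 0.0382, edgeR), at medians of 0.496 and 0.0982 CPM. By DESeq2 4 of the 22 passed, beside 901 of 12624 genes, and by limma 0, beside 31. None passed in tumor-low DP against WBC (edgeR). There 4 had an unadjusted p under 0.05, 4 passed by DESeq2 and 2 by limma, beside 1884, 2525 and 835 of 12624 genes. For lung against blood 25 could be tested and none passed in tumor-low DP (7 unadjusted, 7 by DESeq2, 0 by limma), in tumor-high DP (4, 4 and 0) or in the difference of the 2 (4, 2 and 0). Over all 13327 genes the same counts were 1237, 1793 and 94 in tumor-low DP and 438, 512 and 0 in tumor-high DP. In the difference they were 514, 645 and 0. Of 18 other clotting genes, fibrinogen and most liver factors among them, 7 passed the filter, and the 7 hepatocyte markers summed to at most 90.6 CPM in tumor-low DP and 319 CPM in WBC.

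Across the 40 sums, the gene most like F10 was Mcemp1 (Pearson r of log2(CPM + 1) = 0.95 among 10542 genes), then Gmfg (0.93) and F7 (0.92), and those most like F7 were F10 (0.92), Mcemp1 (0.91) and Gm2a (0.90). F5 went with Cd5l (0.95), Alox15 (0.92) and Prtn3 (0.90), F13a1 with Mrc1 (0.88), Lmo2 (0.87) and Trem2 (0.83), and Thbs1 with Msr1 (0.95), Itgam (0.95) and Csf1r (0.95). Plaur went with Tagln2 (0.95), Sh3bgrl3 (0.94) and Csf2ra (0.93). For the tumor messages the closest genes were Cttn (0.90), Cdh2 (0.88) and Lgalsl (0.87) for F3 and Fkbp9 (0.87), Atp6v0e2 (0.87) and Cdc42ep5 (0.87) for Tfpi. Plau had the loosest match, Zfp268 at 0.74, then Npl (0.68) and Gatm (0.66). These correlations are descriptions; sums of the same replicate come from 1 sample, and tumor-type and leukocyte-type sums fall into separate groups.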

How the data were processed

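Raw counts for each gene in each cell are what the authors deposited, with a second deposited file that maps cells to samples. Per the submitters' processing notes the authors used Trim Galore, HISAT2, SAMtools and featureCounts with build mm10, and BWA and Picard are listed too. Versions, annotation and strand setting: not given in the sources used here. Cells had 20525 to 104170496 counts. The value 2 was 3.59 times as frequent as 1, so a count may hold both reads of a pair, and intervals cover counting error only.

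Counts were summed per replicate, tissue and group and tested with edgeR 4.0.16 (quasi-likelihood, TMM, filterByExpr, Benjamini-Hochberg over all genes, threshold 0.05), with replicate as a block and tissue as a term; for lung against blood only DP sums entered. Sums with the same replicate number come from 1 sample, which is the ground for the block. SE is the log2 difference over the root of F. Alternatives were DESeq2 1.42.0, limma 3.58.1 on log2(mean CPM + 1), RLE factors, no filter, no block, sums of at least 5 cells, tumor state from Ward branches, no P-labelled samples, single tissues and left-out replicates. R 4.3.3, Python 3.11.15, NumPy 2.4.6, pandas 2.3.3, SciPy 1.17.1 and matplotlib 3.10.9 were used. There were 0 columns of other samples, no cell was removed and doublets were not called. All 9 genes were tested in every comparison, though not each is named in each of them. Of the other pathway genes at most 6 that passed are named by p, and any others are marked as named after their values were seen. The 3 genes most like each of the 9 are named. The members and lists were chosen with earlier results of these data known. The DNA data were not analysed here.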

Additional observations from a re-analysis of the deposited data

Results flagged for a closer look

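Of 54 groups of 4 to 10 sums, 2 held a sum far from the others, where chance gives about 1 in 20. Plaur was at 749.94 CPM in the blood WBC of replicate 2, above a group median of 301.83 CPM (6 sums). Thbs1 was at 93.401 CPM in the blood tumor-low DP cells of replicate 6, below a group median of 1822.8 CPM (6 sums).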

How the results depend on the processing

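Over all alternatives, 836 of 922 log2 differences of the 9 genes kept their direction and side of the threshold, 22 passed it anew, 19 lost it and 45 changed sign, none of these 45 called. F13a1 in tumor-high DP against CTC and F3 in tumor-low against tumor-high DP lost their calls in the settings given in the report; F3 also did with sums of at least 5 cells (adjusted p = 0.146, edgeR), without the P-labelled samples (0.137) and in blood (0.202) or lung (0.211) alone. The causes were not tested. The number of samples and the few cells per sum limit all of these values.

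Genes past the threshold in tumor-low DP against WBC numbered 145, and 2525 by DESeq2, 869 with no replicate block, 51 with sums of at least 5 cells, 835 by limma, 95 without the P-labelled samples, 19 in blood and 0 in lung; of the 9 genes, 0 passed, and 2 by DESeq2, 1 with no replicate block and 2 by limma. In tumor-high DP against CTC there were 206, and 901 by DESeq2, 36 with at least 5 cells, 31 by limma, 74 in blood and 0 in lung; of the 9 genes 1 passed, and 0 with at least 5 cells, by limma, in blood or in lung. In tumor-low against tumor-high DP there were 2534, and 4618 by DESeq2, 4869 by limma, 1013 without the P-labelled samples, 1567 in blood and 237 in lung, where 4 of the 9 passed. In CTC against WBC there were 3538, and 5679 by DESeq2, 6622 by limma and 170 in lung. For lung against blood in tumor-low DP there were 16, and 58 with no filter, 1793 by DESeq2, 362 with no replicate block, 9 with at least 5 cells, 94 by limma and 10 without the P-labelled samples; 2 of the 9 passed by DESeq2. In tumor-high DP there were 0, and 16 with no filter, 512 by DESeq2, 28 with no replicate block and 3 without the P-labelled samples; of the 9, 2 passed by DESeq2 and 1 with no replicate block. For the difference of both there were 0, and 645 by DESeq2, with 1 of the 9, and 1 without the P-labelled samples.

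Leaving out 1 replicate gave 19 to 195 genes in tumor-low DP against WBC, 47 to 194 in tumor-high DP against CTC, 1628 to 2599 in tumor-low against tumor-high DP, 2811 to 3572 in CTC against WBC, and for lung against blood 3 to 19 in tumor-low DP, 0 to 4 in tumor-high DP and 0 in the difference; of the 9 genes it gave 0, 0 to 1, 6 to 7, 6, 0, 0 and 0.

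The log2 differences that changed sign were these. In tumor-low DP against WBC, F7 was at 0.32 with at least 5 cells, 0.89 by limma, 0.20 without the P-labelled samples, 0.34 in blood and 0.49 in lung (-1.15 to 0.61 with 1 replicate left out), F3 at 0.93 with no replicate block, 0.51 by limma and 3.38 in blood (-2.26 to 0.90), and Tfpi at 4.92 with at least 5 cells, 1.34 by limma, 0.30 without the P-labelled samples and 5.24 in lung (-1.66 to 0.92). In tumor-high DP against CTC, F3 was at -0.37 with at least 5 cells, -0.062 without the P-labelled samples and -0.065 in blood (-0.15 to 0.59), Plau at 1.77 with at least 5 cells, 0.13 by limma, 0.14 with Ward branches, 1.01 without the P-labelled samples and 3.94 in lung (-1.55 to 1.03), and Plaur at -0.95 in lung. In CTC against WBC, Plau was at -1.09 with at least 5 cells and -4.88 in lung (-0.45 to 1.42). For lung against blood in tumor-low DP, F13a1 was at 0.23 with no replicate block and 0.81 with at least 5 cells, and F10 at 0.43 with at least 5 cells and 0.15 without the P-labelled samples (-1.39 to 0.59); in tumor-high DP, Tfpi was at -0.10 with at least 5 cells. Of 108 shares of cells under another level or thinned, 97 stayed within the counting interval. The 11 that left it were, at 1 CPM, F13a1 (40.3%), F10 (58.01%), F3 (17.7%), Tfpi (28.2%), Plau (34.8%) and Thbs1 (76.2%) in tumor-low DP, Thbs1 in tumor-high DP (19.3%), and Tfpi (28.9%) and Thbs1 (88.9%) in WBC; and, at 20 CPM, Plaur in tumor-high DP (19.3%) and Thbs1 in CTC (6.98%).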
